A study of Mus musculus with 8 samples.

Results

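The costimulatory receptors OX40, GITR and 4-1BB of regulatory T (Treg) cells are encoded by Tnfrsf4, Tnfrsf18 and Tnfrsf9, and the chromatin around these genes is described here from ATAC-seq, in which a transposase cuts accessible DNA and adds sequencing adapters. Members were the sites of the deposited count table whose midpoint on mouse build mm9 lay in 1 of 2 windows on chromosome 4. The window of Tnfrsf4 and Tnfrsf18 was chr4:155370000-155420000 and held 17 sites, and the window of Tnfrsf9 was chr4:150270000-150340000 and held 20. Together these were 37 of the 79758 sites in the table, and all 37 passed the filter on low counts. The rule used position alone.

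Treg cells were sorted from spleen and lymph nodes of mixed bone marrow chimeras, animals whose blood cells come from a mixture of donor marrows. The 8 libraries formed 4 groups of 2, namely Pggt1b-deficient eTreg, WT eTreg, Pggt1b-deficient cTreg and WT cTreg cells. The study's design compares WT and Pggt1b-deficient cells of the effector (eTreg) and central (cTreg) subsets. Pggt1b encodes the catalytic subunit of an enzyme that attaches a geranylgeranyl lipid to proteins. All 4 groups were Treg cells from chimeras. The allele, the Cre driver, the age of the animals and the markers used for sorting were not given in the labels used here. Nothing in the labels tells whether the pair of libraries in a group derived from different chimeras. The p-values therefore reflect library-to-library spread, part of which may be technical.

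OX40, GITR and 4-1BB belong to the TNF receptor superfamily. Their ligands sit on antigen-presenting cells, and the bound receptors recruit TRAF adaptor proteins and activate NF-kB. In mice, Treg cells carry GITR and OX40 without stimulation, while 4-1BB, also called CD137, is induced by stimulation through the T cell receptor. All 3 are used as surface marks of activated or effector Treg cells.

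Gene positions on mm9 were not at hand, so a site is named by its position and tied only to its window. In RefSeq's table for build GRCm38.p6 the order of genes around the receptors was Sdf4, Tnfrsf4, Tnfrsf18 and Ttll10, and Park7, Tnfrsf9 and Per3. A site of a window may therefore belong to a neighbouring gene, and whether it covers a promoter, exon or intron was not analysed here. The labelled cell type could not be checked against marker genes for the same reason. Fewer cells with an open site and a less open site in each cell cannot be told apart in these bulk libraries.

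The promoter of Tnfrsf9 is shown because its window held most of the differences called below. RefSeq's promoter table lists 2 starts for the gene, and the 250 bases before each are given on the plus strand of GRCm38.p6. Capitals mark matches to motifs of AP-1 (TGANTCA), of NF-kB (GGGA, then 4 bases of any kind, then CC), or of the GC box bound by SP factors (GGGCGG), each searched on both strands.
Tnfrsf9 start 1, chr4:150919905-150920154: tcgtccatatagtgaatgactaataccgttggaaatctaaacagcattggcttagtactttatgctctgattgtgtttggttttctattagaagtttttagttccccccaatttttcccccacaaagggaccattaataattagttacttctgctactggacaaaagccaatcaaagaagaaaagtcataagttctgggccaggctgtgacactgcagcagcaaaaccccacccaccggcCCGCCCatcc
Tnfrsf9 start 2, chr4:150927749-150927998: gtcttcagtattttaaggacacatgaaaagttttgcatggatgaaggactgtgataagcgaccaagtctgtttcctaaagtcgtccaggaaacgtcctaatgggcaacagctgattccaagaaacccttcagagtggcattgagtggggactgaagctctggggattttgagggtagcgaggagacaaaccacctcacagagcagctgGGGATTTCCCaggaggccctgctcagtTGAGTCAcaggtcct
The first start had a GC box on the minus strand at bases 241 to 246, and 32.7% of the 32851 promoters of the table hold that motif. The second had an NF-kB match at bases 209 to 218, which reads on both strands, and an AP-1 match at bases 236 to 242. An NF-kB match of this form was in 17.6% of promoters and an AP-1 match in 6.75%. The stretches before the starts of Tnfrsf4 and Tnfrsf18 held none of these 3 motifs, nor the CRE (TGACGTCA, in 1.55% of promoters) or an ETS motif (CCGGAAG, in 6.91%). A match is a run of letters and not a measured binding site, and these promoters could not be placed on the mm9 sites.

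Libraries differed in depth. The Pggt1b-deficient eTreg libraries totalled 2255214 and 1664702 counts, against 7153991 to 14974253 in the other 6. At the 37 sites they held 960 and 752 counts, against 3085 to 8748. The 2 shallow libraries had no count at 6 of the 37 sites each, against 0 or 1 site in the other libraries. Levels below are CPM, counts scaled to a common library size with TMM factors and not divided by the length of the site, and each difference was tested with edgeR's quasi-likelihood test over 75352 sites, with a call at a Benjamini-Hochberg adjusted p under 0.05. The part of the low depth in any difference that involves Pggt1b-deficient eTreg cells was not tested apart from the alternatives named beside it.

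Summed over its 20 sites, the Tnfrsf9 window reached 281 and 263 CPM in Pggt1b-deficient eTreg libraries and 410 and 391 CPM in WT eTreg libraries. The sums were 234 and 238 CPM in Pggt1b-deficient cTreg libraries, against 259 and 262 CPM in WT cTreg libraries. WT eTreg stood highest, above all 6 other libraries, and Pggt1b-deficient cTreg lowest. Pggt1b-deficient eTreg and WT cTreg were next to each other in the order, their nearest libraries 262.5 and 261.7 CPM. The mean sum was 271.9 ± 13.2 CPM in Pggt1b-deficient eTreg, 0.678 times the 400.8 ± 13.5 CPM of WT eTreg. In cTreg it was 235.5 ± 2.83 CPM in Pggt1b-deficient cells, 0.904 times the 260.5 ± 1.65 CPM of WT cells (SD, n = 2 libraries in each group). Set between subsets, the eTreg sum was 1.15 times the cTreg sum in Pggt1b-deficient cells and 1.54 times in WT cells.

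The window of Tnfrsf4 and Tnfrsf18 varied less between groups. Its 17 sites summed to 149 and 183 CPM in Pggt1b-deficient eTreg libraries and to 216.6 and 202.6 CPM in WT eTreg libraries. In cTreg the sums were 189.7 and 188.2 CPM for Pggt1b-deficient libraries, against 200.6 and 192.3 CPM for WT libraries. The Pggt1b-deficient eTreg libraries were lowest, and their mean of 166.2 ± 23.9 CPM was 0.790 times the 209.6 ± 9.94 CPM of WT eTreg. The mean of Pggt1b-deficient cTreg was 0.962 times that of WT cTreg, 189.0 ± 0.996 against 196.4 ± 5.89 CPM (SD, n = 2 libraries in each group). The sums were left untested, since with 2 libraries on each side the smallest exact permutation p is 0.33.

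**Figure D1:**
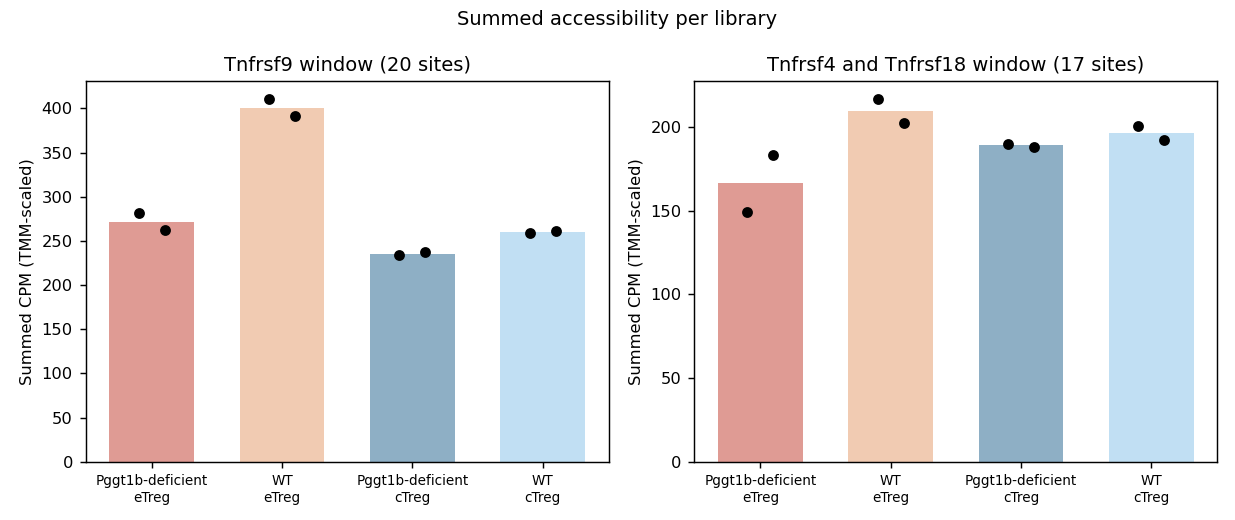
Summed TMM-scaled CPM of the sites in each window, 1 point per library and a bar at each group mean, with Pggt1b-deficient groups left of WT groups. In the Tnfrsf9 window WT eTreg libraries sit at 391 and 410 CPM and all others at 281 or lower, and in the window of Tnfrsf4 and Tnfrsf18 the Pggt1b-deficient eTreg libraries are lowest, at 149 and 183 CPM.

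In eTreg cells, the sites called lower without Pggt1b lay mostly in the Tnfrsf9 window. Whether the windows differ in their share of calls was not tested, nor was the part of the counts per site in it. There 7 of 20 sites were called lower in eTreg cells without Pggt1b than in their WT counterparts, as was 1 of 17 in the window of Tnfrsf4 and Tnfrsf18. Together 8 of 37 member sites (21.6%) were called lower, where 6.43% of all tested sites were. No member was called higher, against 4.66% of all tested sites, and 1 had a higher level at an unadjusted p under 0.05. With DESeq2 also, no member was called higher. The median log2 fold change was -0.66 over the Tnfrsf9 window and -0.65 over the other window, against -0.09 over all tested sites. With the 2 sites that had no count in Pggt1b-deficient eTreg cells set at their bounds, these medians were -0.66 and -0.38. Of the 37 sites, 34 had a negative fold change, 19 of 20 in the Tnfrsf9 window and 15 of 17 in the other. These sites were read from the same libraries, and the share of negative values over all tested sites was not counted.

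The site with the most CPM of the Tnfrsf9 window in WT eTreg cells, 693 bp long at chr4:150289235-150289928, had 35.0 and 33.2 CPM in Pggt1b-deficient eTreg libraries and 71.5 and 71.8 CPM in WT eTreg libraries. The groups did not overlap. Its log2 fold change was -1.07 ± 0.15 (SE), with an edgeR adjusted p of 2.45e-06. Over the 16 alternatives run, including thinning of every library to 1664702 counts, its adjusted p stayed between 5.68e-07 and 0.000535.

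A 652 bp site further along, chr4:150298272-150298924, had 44.8 and 35.6 CPM in Pggt1b-deficient eTreg libraries against 60.2 and 55.0 CPM in WT eTreg libraries. Here too the groups stood apart, but the gap was smaller. The log2 fold change was -0.50 ± 0.15 (SE), with an edgeR adjusted p of 0.0248. The call was lost in 7 of 16 alternatives, among them leaving out Pggt1b-deficient eTreg replicate 2 (0.178), WT eTreg replicate 1 (0.134) or WT eTreg replicate 2 (0.0515).

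Towards the high end of the window, the 125 bp site chr4:150325224-150325349 had 1.79 and 3.56 CPM in Pggt1b-deficient eTreg libraries against 10.9 and 9.71 CPM in WT eTreg libraries. All Pggt1b-deficient values lay under all WT values. The log2 fold change was -2.00 ± 0.50 (SE, edgeR adjusted p = 0.00621). The adjusted p was 0.126 without Pggt1b-deficient eTreg replicate 1 and 0.071 with limma-voom and group weights, and the call held in the other alternatives.

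The site nearest the high edge, 458 bp at chr4:150338789-150339247, had 16.1 and 27.9 CPM in Pggt1b-deficient eTreg libraries and 41.1 and 30.6 CPM in WT eTreg libraries. The pairs came close to each other, at 27.9 and 30.6 CPM. Its log2 fold change was -0.74 ± 0.21 (SE, edgeR adjusted p = 0.017). The call was lost in 4 of 16 alternatives. Among them were edgeR with only the 4 libraries compared (adjusted p = 0.087) and limma-voom with group weights (adjusted p = 0.0628). The others left out 1 library, with a log2 fold change of -0.36 without Pggt1b-deficient eTreg replicate 1 and -0.52 without WT eTreg replicate 1.

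Another small site, 148 bp at chr4:150291500-150291648, had 5.38 and 6.52 CPM in Pggt1b-deficient eTreg libraries against 11.9 and 13.6 CPM in WT eTreg libraries. Its log2 fold change was -1.11 ± 0.35 (SE, edgeR adjusted p = 0.0321). The pairs did not overlap, yet the call was lost in 8 of 16 alternatives, with adjusted p of 0.185 and 0.0542 without Pggt1b-deficient eTreg replicates 1 and 2, and 0.0606 and 0.164 without WT eTreg replicates 1 and 2. The 115 bp site chr4:150301560-150301675, named after its values were seen, had 1.79 and 4.74 CPM in Pggt1b-deficient eTreg libraries against 7.04 and 8.96 CPM in WT eTreg libraries. It too was apart in all libraries, with a log2 fold change of -1.38 ± 0.45 (SE, adjusted p = 0.0419 by edgeR). That call was lost in 10 of 16 alternatives, with an adjusted p of 0.386 without Pggt1b-deficient eTreg replicate 1, 0.052 and 0.194 without WT eTreg replicates 1 and 2, and 0.0626 and 0.0606 without WT cTreg replicates 1 and 2.

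The 53 bp site chr4:150311925-150311978 had no count in either Pggt1b-deficient eTreg library, against 3.15 and 2.78 CPM, 75 counts together, in WT eTreg libraries. Against a floor of 6 counts over the group, 3 pairs of counts, it was at least 1.92-fold lower (adjusted p = 0.00822 by edgeR, and 0.0745 without Pggt1b-deficient eTreg replicate 1). The floor covers counting error only, and the WT level set against it was pooled over both WT eTreg libraries, without their spread.

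The 1 site called lower in the window of Tnfrsf4 and Tnfrsf18 was 276 bp long, at chr4:155382597-155382873. It had 3.59 and 5.33 CPM in Pggt1b-deficient eTreg libraries against 13.6 and 13.3 CPM in WT eTreg libraries. The Pggt1b-deficient level was near that of both cTreg groups. Its log2 fold change was -1.62 ± 0.38 (SE, edgeR adjusted p = 0.00352), and the only alternative that lost the call was the one without Pggt1b-deficient eTreg replicate 1 (0.0792).

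The 3 sites of that window with the highest mean CPM over groups were not called. The 908 bp site chr4:155395841-155396749 had 55.2 and 68.2 CPM in Pggt1b-deficient eTreg libraries against 73.3 and 71.5 CPM in WT eTreg libraries, a log2 difference of -0.25 ± 0.12 (SE, edgeR adjusted p = 0.208). The 504 bp site chr4:155404728-155405232 had 31.4 and 40.3 CPM against 48.2 and 38.9 CPM in the same order, and here the pairs overlapped (-0.29 ± 0.17, edgeR adjusted p = 0.27). For the 324 bp site chr4:155387768-155388092 the values were 16.1 and 23.7 CPM in Pggt1b-deficient eTreg and 24.9 and 25.7 CPM in WT eTreg (-0.38 ± 0.21, edgeR adjusted p = 0.257). All 3 had lower means in Pggt1b-deficient cells, by less than the test could separate from library-to-library spread.

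The largest positive fold change in this comparison was that of a site 307 bp long, at chr4:155409128-155409435, which was named after its values were seen. It had 8.97 and 8.89 CPM in Pggt1b-deficient eTreg libraries against 4.63 and 5.29 CPM in WT eTreg libraries, with a log2 fold change of 0.84 and an edgeR adjusted p of 0.127.

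The number of members called lower in this comparison moved with single libraries, as did the share of all tested sites. It was 3 of 37 without Pggt1b-deficient eTreg replicate 1, where 3.82% of all sites were called lower. Without WT eTreg replicates 1 and 2 it was 4 and 5, where 4.08% and 3.33% of all sites were. With limma-voom and a weight per group, which lets the shallow group vary more, 3 of 37 were called lower, where 2.69% of all sites were. With every library thinned to the smallest total, an alternative chosen after seeing the data, 4 of the 25 sites still tested were called lower, where 4.96% of all tested sites were.

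**Figure D2:**
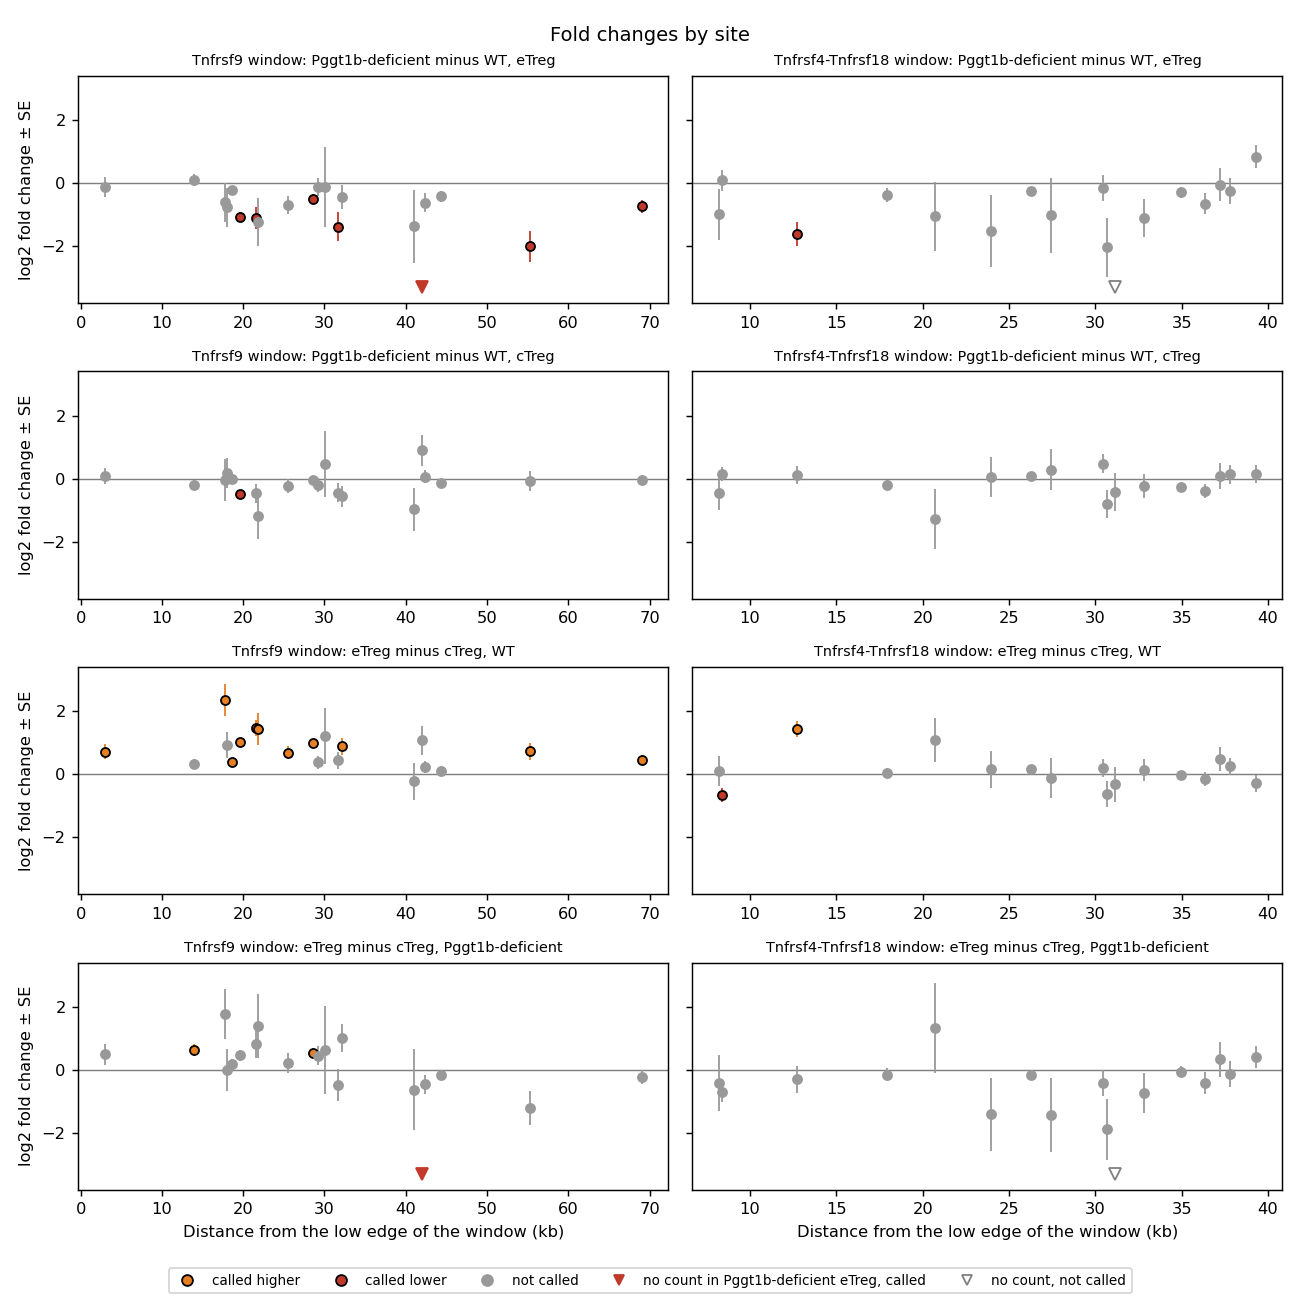
Log2 fold change of each member site by distance from the low edge of its window in kb, with 1 column per window and 1 row per comparison. Rows compare Pggt1b-deficient with WT cells in eTreg and in cTreg, then eTreg with cTreg in WT and in Pggt1b-deficient cells. Orange and red points with a black edge are sites called higher and lower at an edgeR adjusted p under 0.05, and grey points are not called. Error bars are 1 SE. Triangles at a fixed height mark the 2 sites with no count in Pggt1b-deficient eTreg libraries, in the comparisons with those libraries, and are filled where called. In the top row 34 of the 37 sites have a negative fold change, and the share over all tested sites was not counted.

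**Figure D3:**
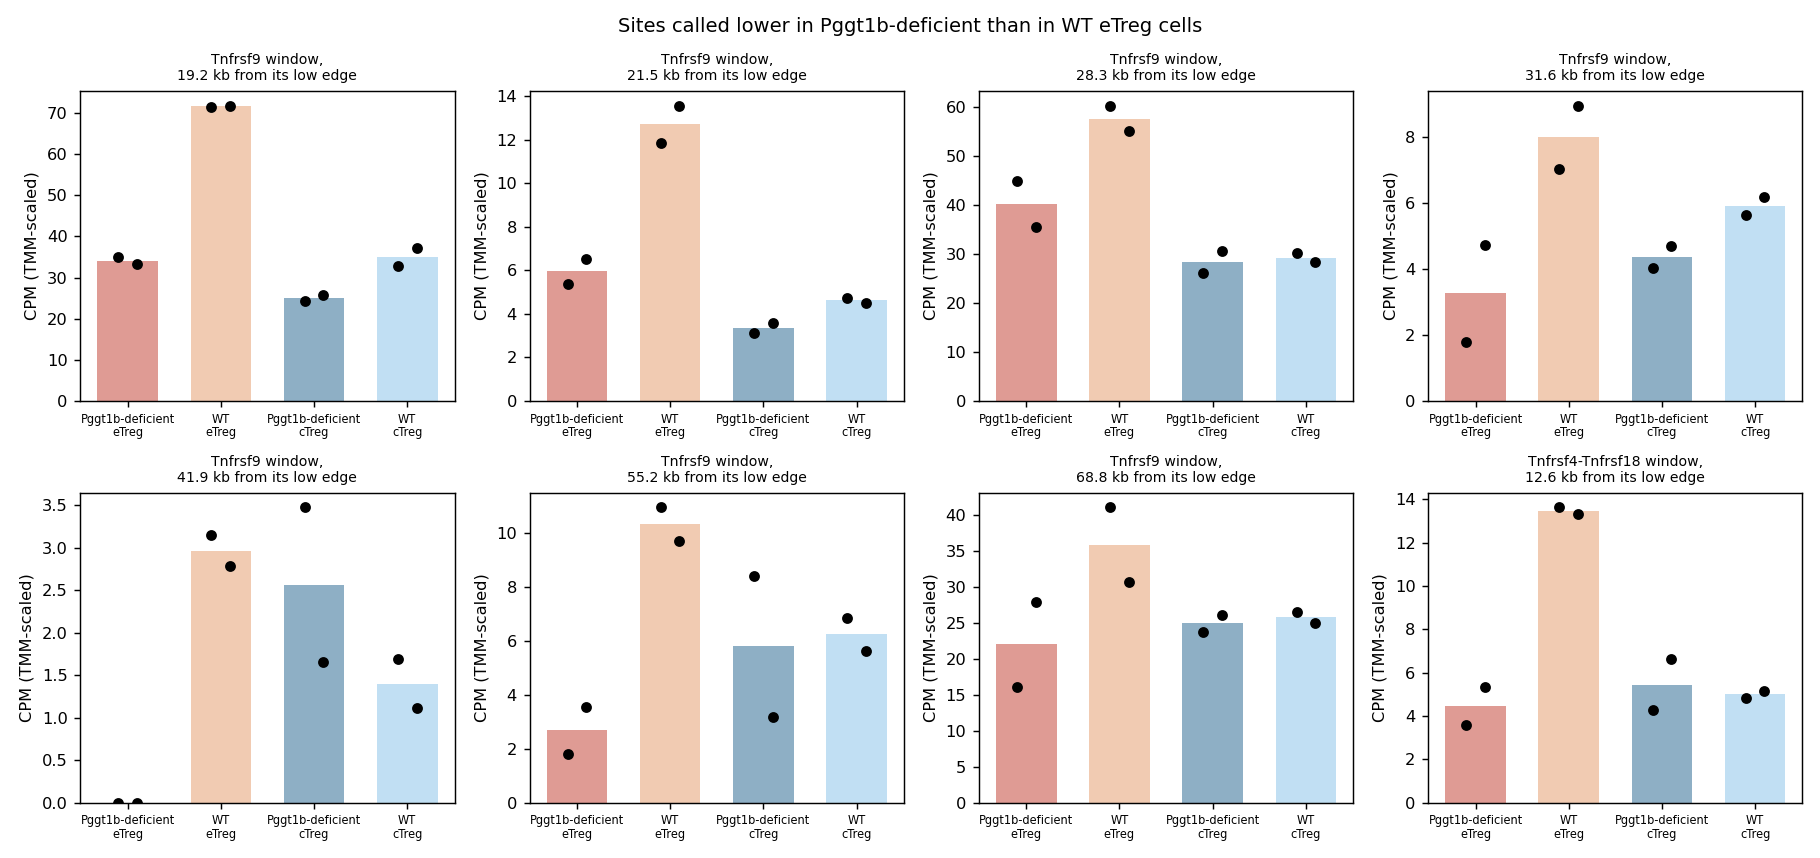
TMM-scaled CPM per library at the 8 sites called lower without Pggt1b in eTreg cells, 1 panel per site and 1 point per library, with Pggt1b-deficient groups left of WT groups. In every panel both Pggt1b-deficient eTreg points lie under both WT eTreg points, and at the 693 bp site of the Tnfrsf9 window they are at 35.0 and 33.2 against 71.5 and 71.8 CPM. The sites were chosen by their call in this same comparison, so this separation is not a separate result.

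In cTreg cells 1 member site was called between genotypes, the 693 bp site of the Tnfrsf9 window. It had 24.2 and 25.7 CPM in Pggt1b-deficient cTreg libraries and 32.9 and 37.3 CPM in WT cTreg libraries. The Pggt1b-deficient values were lower in both libraries, with a log2 fold change of -0.49 ± 0.12 (SE, adjusted p = 0.0207 by edgeR). That is 1 of 37 sites (2.7%) called lower, where 1.69% of all tested sites were. No member was called higher, against 0.53% of all tested sites, and none had an unadjusted p under 0.05 in that direction, with edgeR. DESeq2 called no member in either direction, and gave this site an adjusted p of 0.0579. Leaving out any 1 of the 4 libraries compared also ended the call, with adjusted p of 0.271 and 0.0934 without Pggt1b-deficient cTreg replicates 1 and 2, and 0.391 and 0.071 without WT cTreg replicates 2 and 1. In the window of Tnfrsf4 and Tnfrsf18 no site reached even an unadjusted p under 0.05. The median log2 fold change of the members was -0.07, against -0.03 over all tested sites.

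At the 276 bp site of Tnfrsf4 and Tnfrsf18, which fell in eTreg cells, the cTreg values were 4.26 and 6.62 CPM without Pggt1b and 4.83 and 5.15 CPM in WT cells. These pairs overlapped, with a log2 fold change of 0.11 ± 0.28 (SE, adjusted p = 0.926 by edgeR). At the 652 bp site of Tnfrsf9 the values were 26.1 and 30.5 CPM in Pggt1b-deficient cTreg and 30.1 and 28.4 CPM in WT cTreg, a log2 difference of -0.05 ± 0.13 (SE, edgeR adjusted p = 0.92).

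Whether the effect of Pggt1b deficiency differed between eTreg and cTreg cells was tested as an interaction. It was called at 1 of 37 members (2.7%), the 53 bp site chr4:150311925-150311978, in the direction of a lower value in Pggt1b-deficient eTreg cells, where 0.555% of all tested sites were called in that direction. None was called in the other direction with edgeR, against 0.957% of all tested sites, and none had an unadjusted p under 0.05 there. DESeq2 called no member in either direction. At the 276 bp site the log2 difference of the effects was -1.73 ± 0.48 (SE, edgeR adjusted p = 0.0571), at the 125 bp site -1.93 ± 0.60 (0.0942), and at the 693 bp site -0.57 ± 0.19 (0.129). None of these 3 differences was called, so the effects at these sites were not shown to differ between subsets. Over the members the median of this difference was -0.46, against -0.04 over all tested sites, and 32 of 37 values were negative. The share of negative values over all tested sites was not counted.

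Between subsets of WT cells, the Tnfrsf9 window was more open in eTreg cells. There 11 of 20 sites were called higher in WT eTreg than in WT cTreg cells and none lower with edgeR, where none had a lower value at an unadjusted p under 0.05. DESeq2 called none lower either. In the window of Tnfrsf4 and Tnfrsf18, 1 of 17 sites was called higher and 1 lower. Over both windows 12 of 37 sites were called higher, where 13.8% of all tested sites were, and 1 was called lower, where 14.9% of all tested sites were. The median log2 fold change was 0.72 in the Tnfrsf9 window and 0.12 in the other, against 0.00 over all tested sites. This comparison shares the WT eTreg libraries with the genotype comparison in eTreg cells, and the values of both are given side by side without a count of sites they share.

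The 693 bp site had 71.5 and 71.8 CPM in WT eTreg libraries against 32.9 and 37.3 CPM in WT cTreg libraries, a log2 fold change of 1.03 ± 0.11 (SE, adjusted p = 9.57e-10 by edgeR). At the 652 bp site the values were 60.2 and 55.0 CPM in WT eTreg and 30.1 and 28.4 CPM in WT cTreg (0.98 ± 0.12, edgeR adjusted p = 1.92e-08). The 148 bp site had 11.9 and 13.6 CPM against 4.75 and 4.51 CPM in the same order (1.46 ± 0.25, edgeR adjusted p = 1.55e-05). These 3 sites are given here for their call in this comparison, so a gap between their groups is not a separate result. The share of all tested sites with such a gap was not counted. None of these 3 sites overlapped between groups, and each kept its call under every alternative run, with largest adjusted p of 2.14e-05, 6.33e-05 and 0.00285.

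In the window of Tnfrsf4 and Tnfrsf18 the 276 bp site was the one called higher, at 13.6 and 13.3 CPM in WT eTreg libraries against 4.83 and 5.15 CPM in WT cTreg libraries. Its log2 fold change was 1.43 ± 0.25 (SE, edgeR adjusted p = 1.93e-05, at most 0.0405 under any alternative run). The site called lower, 69 bp at chr4:155378356-155378425, had 7.60 and 6.79 CPM in WT eTreg libraries and 10.6 and 12.04 CPM in WT cTreg libraries, a log2 difference of -0.66 ± 0.22 (SE, edgeR adjusted p = 0.0206). Without any 1 of the 4 libraries compared its adjusted p was 0.0573 to 0.201. The 908, 504 and 324 bp sites, those with the highest mean CPM of the window, differed by 0.16 ± 0.10, -0.01 ± 0.12 and 0.04 ± 0.14 on the log2 scale, with edgeR adjusted p of 0.231, 0.956 and 0.872.

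The WT subsets also differed at 8 more sites of the Tnfrsf9 window, each called higher in WT eTreg. At the 143 bp site chr4:150287727-150287870 the values were 2.69 and 5.02 CPM in WT eTreg and 1.05 and 0.475 CPM in WT cTreg, a log2 fold change of 2.34 ± 0.50 (SE, adjusted p = 0.000379 by edgeR, and 0.0863 without WT eTreg replicate 2). The 380 bp site chr4:150288473-150288853, which had the highest mean CPM of the window over groups, reached 59.8 and 55.6 CPM in WT eTreg and 42.6 and 45.0 CPM in WT cTreg (0.40 ± 0.11, edgeR adjusted p = 0.00725). At the 255 bp site chr4:150295417-150295672 they were 15.7 and 14.2 CPM in WT eTreg against 9.99 and 8.55 CPM in WT cTreg (0.68 ± 0.20, edgeR adjusted p = 0.00952). The groups were apart at all 3, which were likewise given for their call in this comparison. The 380 bp call was lost without WT eTreg replicate 1 (0.0913) or WT cTreg replicate 1 (0.124), and the 255 bp call without WT eTreg replicate 1 (0.0997) or WT cTreg replicate 2 (0.152).

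The other 5 were the 154 bp site chr4:150272951-150273105, the 50 bp site chr4:150302075-150302125, the 125 and 458 bp sites described above, and the 79 bp site chr4:150291754-150291833, which was named after its values were seen. Their log2 fold changes ran between 0.47 ± 0.15 at the 458 bp site and 1.43 ± 0.51 at the 79 bp site, with edgeR adjusted p between 0.0138 and 0.0463. The 154 bp site, for example, had 11.1 and 10.9 CPM in WT eTreg libraries against 6.28 and 7.13 CPM in WT cTreg libraries. With DESeq2 and all libraries none of the 5 was called, at adjusted p of 0.0632 to 0.227. Each of these calls was lost without WT eTreg replicate 1 and without either WT cTreg library, and those at the 154, 79 and 125 bp sites also without WT eTreg replicate 2. Without those libraries the adjusted p at the 5 sites lay between 0.0786 and 0.388.

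The number of members called between the WT subsets, 13 of 37, was 5 and 8 without WT eTreg replicates 1 and 2, and 6 without either WT cTreg library. The share of all tested sites called in either direction also fell, to between 16.5% and 18.5% without any of these 4 libraries, against 28.7% with all libraries. With every library thinned to the smallest total, 5 of the 25 sites still tested were called higher, where 7.44% of all tested sites were. With both Pggt1b-deficient eTreg libraries left out of the fit, also an alternative chosen after seeing the data, 15 of the 36 sites tested were called higher and 1 lower, where 17.5% and 16.9% of all tested sites were.

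In Pggt1b-deficient cells, 2 sites of the Tnfrsf9 window were called higher in eTreg than in cTreg cells, where 4.59% of all tested sites were, and 1 lower, where 4.52% of all tested sites were. The 652 bp site had 44.8 and 35.6 CPM in Pggt1b-deficient eTreg libraries against 26.1 and 30.5 CPM in Pggt1b-deficient cTreg libraries, a log2 fold change of 0.53 ± 0.16 (SE, adjusted p = 0.0361 by edgeR). At the 537 bp site chr4:150283707-150284244 the values were 34.5 and 28.4 CPM in Pggt1b-deficient eTreg and 19.5 and 21.5 CPM in Pggt1b-deficient cTreg (0.63 ± 0.19, edgeR adjusted p = 0.0292). The 53 bp site was the one called lower, with no count in Pggt1b-deficient eTreg libraries against 3.48 and 1.66 CPM in Pggt1b-deficient cTreg libraries (adjusted p = 0.0163 by edgeR). The level pooled over both cTreg libraries, 2.66 CPM, was 1.74 times the floor of 1.53 CPM that 6 counts give in the shallow group. The lower cTreg library, at 1.66 CPM, was close to that floor. These 3 calls, 8.11% of the members, are a share near that of all sites, and each was lost in several alternatives. Without Pggt1b-deficient eTreg replicate 1 the adjusted p was 0.413, 0.301 and 0.113 at the 652, 537 and 53 bp sites, and without Pggt1b-deficient cTreg replicate 1 it was 0.246, 0.166 and 0.107. For the 537 bp site it was 0.0532 without Pggt1b-deficient cTreg replicate 2. The 652 bp call was also lost without any 1 of the 4 WT libraries, at 0.0516 to 0.0572.

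The 537 bp and 693 bp sites had their groups in different order. The 537 bp site had 34.5 and 28.4 CPM in Pggt1b-deficient eTreg, against 29.9 and 29.3 CPM in WT eTreg. In cTreg it had 19.5 and 21.5 CPM without Pggt1b and 21.4 and 25.3 CPM in WT cells. Both eTreg groups lay above both cTreg groups there, with the genotypes overlapping in each subset. In WT cells its log2 difference between subsets was 0.34 ± 0.14 (SE, edgeR adjusted p = 0.0614). The 693 bp site, in contrast, had 35.0 and 33.2 CPM in Pggt1b-deficient eTreg, inside the pair of 32.9 and 37.3 CPM of WT cTreg, with Pggt1b-deficient cTreg lower at 24.2 and 25.7 CPM. Between its subsets in Pggt1b-deficient cells the log2 fold change was 0.46 ± 0.17 (SE, edgeR adjusted p = 0.0767).

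In the window of Tnfrsf4 and Tnfrsf18 no site was called between the Pggt1b-deficient subsets with edgeR, and 2 had an unadjusted p under 0.05, both lower in eTreg. The 276 bp site had 3.59 and 5.33 CPM in Pggt1b-deficient eTreg libraries and 4.26 and 6.62 CPM in Pggt1b-deficient cTreg libraries, with overlap between the groups (-0.30 ± 0.43, edgeR adjusted p = 0.728). The 69 bp site had 8.07 and 7.11 CPM against 12.2 and 12.8 CPM in the same order (-0.71 ± 0.32, edgeR adjusted p = 0.164).

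**Figure D4:**
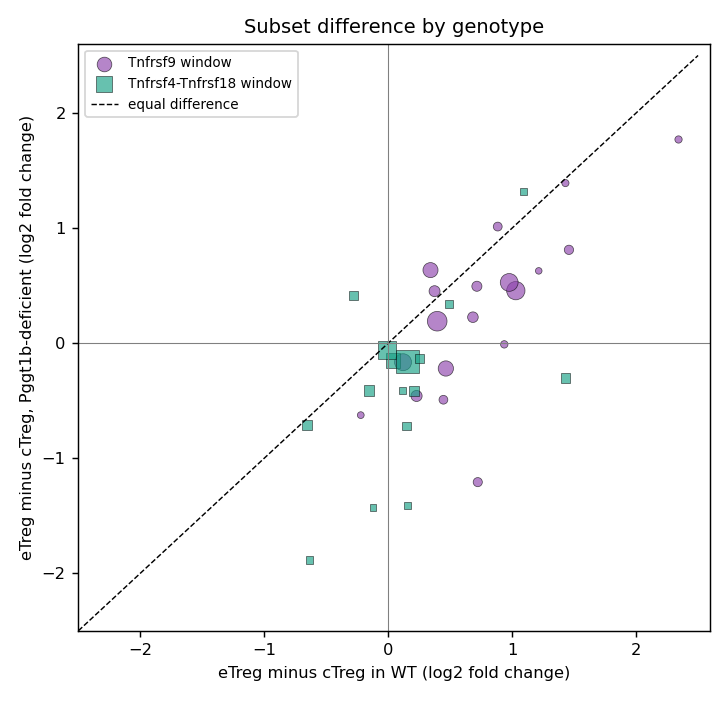
Log2 fold change of eTreg against cTreg cells at 35 member sites, in Pggt1b-deficient cells on the vertical axis and in WT cells on the horizontal axis, with a line at equal values and larger markers for sites with a higher mean CPM. At 30 of the 35 sites the point lies below the line, and the 2 sites with no count in Pggt1b-deficient eTreg libraries are left out. A point below the line is a negative value of the interaction. This count therefore restates the 32 of 37 negative interaction values in the text and is not a separate result. The share below such a line over all tested sites was not counted. The 2 comparisons share no library.

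The share of all tested sites called in no contrast was not counted. Among the members such sites numbered 6 of 20 in the Tnfrsf9 window and 15 of 17 in the other. The 3 of them given next were named after their values were seen. Among the first, the 666 bp site chr4:150313986-150314652 had 31.4 and 27.3 CPM in Pggt1b-deficient eTreg libraries against 38.7 and 40.3 CPM in WT eTreg libraries (log2 -0.42, edgeR adjusted p = 0.0881). In cTreg it had 33.4 and 32.8 CPM without Pggt1b and 36.4 CPM in both WT libraries. Its Pggt1b-deficient values lay under the WT values in both subsets, without a call. The 253 bp site chr4:150312266-150312519 had 10.8 and 7.11 CPM in Pggt1b-deficient eTreg against 14.6 and 13.5 CPM in WT eTreg, while cTreg values overlapped at 12.2 and 13.0 CPM without Pggt1b and 13.3 and 10.7 CPM in WT cells.

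In the window of Tnfrsf4 and Tnfrsf18 the second site with no count in either Pggt1b-deficient eTreg library was chr4:155401084-155401160, of 76 bp, against 1.48 and 1.29 CPM in WT eTreg libraries. Those WT levels lie under the floor of 1.53 CPM that 6 counts give in the shallow group, so no fold is given. Over the other 16 sites of that window the log2 fold change of Pggt1b-deficient against WT eTreg ran from -2.03 to 0.84.

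Neighbouring sites were summed over stretches, without a test. Sites at most 1000 bp apart formed 11 stretches in the Tnfrsf9 window and 10 in the other. The stretch chr4:150287727-150289928, with 4 sites over 2201 bp including the 693 bp site, summed to a mean of 87.0 CPM in Pggt1b-deficient eTreg and 136.6 CPM in WT eTreg. The 693 bp site, called above, supplied means of 34.1 and 71.6 CPM of these sums. With all libraries, no other site of the stretch was called between genotypes in eTreg. In cTreg the mean of the stretch was 70.9 CPM without Pggt1b and 81.4 CPM in WT cells. Within it the 380 bp site had 58.8 and 37.9 CPM in Pggt1b-deficient eTreg against 59.8 and 55.6 CPM in WT eTreg, a difference that was not called (log2 -0.22 ± 0.15, edgeR adjusted p = 0.366). Single libraries decided this value. Without Pggt1b-deficient eTreg replicate 1 the log2 fold change was -0.61 and the site was called lower (edgeR adjusted p = 0.0417), and without Pggt1b-deficient eTreg replicate 2 it was 0.02 (0.946). Whether the fold changes of the 380 and 693 bp sites differ was not tested. The stretch chr4:155404728-155407808, with 4 sites over 3080 bp in the window of Tnfrsf4 and Tnfrsf18, had means of 51.9 CPM in Pggt1b-deficient eTreg and 64.6 CPM in WT eTreg, and in cTreg of 54.8 CPM without Pggt1b and 64.0 CPM in WT cells.

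Gaps without sites lay at the edges of both windows. For the Tnfrsf9 window, the outermost sites inside, chr4:150272951-150273105 and chr4:150338789-150339247, had means of 10.3 and 22.0 CPM in Pggt1b-deficient eTreg against 11.03 and 35.8 CPM in WT eTreg. The nearest sites outside, chr4:150229547-150229613 and chr4:150365582-150365630, had 3.27 and 0.897 CPM in Pggt1b-deficient eTreg against 1.62 and 2.17 CPM in WT eTreg. For the window of Tnfrsf4 and Tnfrsf18, the nearest site outside the low edge, chr4:155367107-155367252, had 11.7 CPM in Pggt1b-deficient eTreg against 10.7 CPM in WT eTreg, and the first site inside, chr4:155378191-155378241, had 0.969 against 2.07 CPM. At the high edge the last site inside was the 307 bp site, and the first outside, chr4:155441856-155441907, had 2.23 CPM in Pggt1b-deficient eTreg against 1.39 CPM in WT eTreg.

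Other parts of the genome with a like profile over the 8 libraries were sought among 2591 bins of 50 kb with at least 8 tested sites, by the root mean square difference of log2 summed CPM, each centred on its mean. Nearest to the Tnfrsf9 window was chr7:19650001-19700000 (8 sites, difference 0.0519), followed by chr17:44850001-44900000 (14 sites, 0.0591) and chr15:51650001-51700000 (8 sites, 0.0666), where the median bin differed by 0.33. Nearest to the window of Tnfrsf4 and Tnfrsf18 were chr13:98000001-98050000 (9 sites, 0.0540), chr4:47250001-47300000 (11 sites, 0.0562) and chr6:114850001-114900000 (30 sites, 0.0585), with a median of 0.214. The 2 receptor windows differed from each other by 0.266.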

How the data were processed

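The authors deposited raw whole-number counts per site in 1 table of all 8 libraries. The submitters' processing notes name bedtools, MACS2 2.1.1, Picard 2.9.4, SAMtools and Trimmomatic 0.36, and the build mm9 (NCBIM37). Not given in the sources used here are the aligner, the threshold for peaks, any pooling of libraries before peak calling, the shift of read ends, and the unit counted (reads or fragments). In each library 66.1% to 77.4% of counts between 1 and 10 were even, so 2 counts were treated as 1 pair in floors. Whether starts in the table count from 0 or 1 is not stated, which leaves 1 base of doubt.

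Groups and replicate numbers came from the sample titles. The test was edgeR's quasi-likelihood F test (edgeR 4.0.16 in R 4.3.3), two-sided. TMM factors were used after filterByExpr, which kept 75352 sites. All 8 libraries entered a single fit of 4 group means, and p-values were adjusted by Benjamini and Hochberg's method over the tested sites in each of 5 contrasts. A standard error is the size of the log2 fold change divided by the root of its F value. The procedure was tested on simulated data with 100 changed sites at each of 2-fold and 4-fold. Tests between genotypes gave 17 false calls in eTreg and 3 in cTreg. Tests between subsets gave 10 without Pggt1b and 2 in WT, and the interaction gave 5. Between genotypes in eTreg, 18% of 2-fold and 57% of 4-fold changes were recovered. Between subsets without Pggt1b these shares were 12% and 74%, and for the interaction 3% and 44%. False calls were thus more frequent than the nominal rate in every comparison that involved Pggt1b-deficient eTreg libraries.

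Members and lists were chosen with earlier results of these data known. Sites named are the 3 with the highest mean CPM in each window and those called in any contrast, at most 12 per window. Others are said to have been named after their values were seen. Alternatives were RLE scaling, no filter, DESeq2 1.42.0, the replicate block, only the libraries compared, limma 3.58.1 voom with group weights, loess offsets, and leaving out each library. Leaving out both Pggt1b-deficient eTreg libraries and thinning all libraries were added after seeing the data. No list of pathway genes was tested and no sequence of a site was read, since no mm9 annotation or genome was used here.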

Additional observations from a re-analysis of the deposited data

Results flagged for a closer look

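The 53 bp site chr4:150311925-150311978 of the Tnfrsf9 window was picked out because the effect of Pggt1b deficiency differed between the 2 subsets in a test of that difference, with an interaction at an edgeR adjusted p of 0.0174. It had no count in either Pggt1b-deficient eTreg library, against 3.15 and 2.78 CPM in WT eTreg libraries. In cTreg it had 3.48 and 1.66 CPM in Pggt1b-deficient libraries, against 1.69 and 1.11 CPM in WT libraries. Over the 13 alternatives that gave the site an adjusted p for the interaction, that value ran between 0.0138 and 0.0867. The call was lost in 4 of those 13. Among eTreg libraries it was lost without Pggt1b-deficient replicate 1 (0.0698) or WT replicate 1 (0.05, at the threshold). Among cTreg libraries it was lost without Pggt1b-deficient replicate 1 (0.0867) or WT replicate 2 (0.0775). DESeq2 and thinning of every library gave the site no adjusted p for the interaction, and neither called a member. The 2 libraries at 0 are also the shallowest, at 2255214 and 1664702 counts, and the part of depth in the result was not tested.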

How the results depend on the processing

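Over the 19 sites that were named or called, 321 called results stayed called under an alternative and 101 lost the call, and 0 of these changed sign. Of the uncalled results 1074 stayed uncalled and 19 became called, and 70 changed sign. For Pggt1b-deficient against WT cells, the 8 member calls in eTreg became 5 with DESeq2, 4 with only the 4 libraries compared, 3 with limma-voom and group weights and 4 with thinning, and the 1 call in cTreg became 0 with DESeq2 or thinning. For eTreg against cTreg, the 13 calls in WT became 7 with DESeq2 and 5 with thinning, and the 3 in Pggt1b-deficient cells became 0 with only the 4 libraries compared, limma-voom or thinning. For the interaction the 1 call became 2 with no filter and 0 with DESeq2 or thinning. Thinning leaves fewer counts and 25 member sites to test. The cause of the other changes was not tested. With only the 4 libraries compared, 32 members were tested between genotypes in eTreg, where 8.73% of all sites were called in either direction. Between subsets without Pggt1b 26 members were tested, where 5.85% of all sites were called. With limma-voom these 2 shares of all sites were 6.09% and 4.11%. With thinning the shares were 9.4%, 0.297%, 14.6%, 7.95% and 0.448% in the order of comparisons above. With no filter the share for the interaction was 1.47%. Leaving out 1 library gave 3 to 8, 0 to 1, 5 to 16, 0 to 4 and 0 to 4 calls in the same order of comparisons. Calls over all tested sites moved too, with 5.97% to 10.4%, 0.492% to 3.98%, 16.5% to 33.3%, 4.04% to 9.37% and 0.495% to 2.61% called in either direction. With DESeq2 the shares of all sites were 7.65%, 1.09%, 17.4%, 6.24% and 0.937%, against 11.1%, 2.21%, 28.7%, 9.12% and 1.51% with edgeR.

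Same-numbered libraries had deviations from their group means correlated at -0.0164 to 0.057. With 2 libraries in each group this cannot tell whether same-numbered libraries shared an animal. A fit with the replicate block gave 8, 1, 13, 3 and 1 calls among the 37 members, the same counts as without it. The shares of all tested sites called in either direction were then 10.3%, 2.08%, 26.8%, 8.42% and 1.38%.

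The log2 ratio of Tnfrsf9 window sums for Pggt1b-deficient against WT cTreg was -0.12 with RLE scaling, against -0.15, and for WT eTreg against WT cTreg 0.57 with library totals only, against 0.62. Leaving out 1 library, the Tnfrsf9 ratios ran from -0.61 to -0.51 and from -0.16 to -0.13 for Pggt1b deficiency in eTreg and cTreg, and from 0.59 to 0.66 and from 0.16 to 0.26 for eTreg against cTreg in WT and Pggt1b-deficient cells. For Tnfrsf4 and Tnfrsf18 they ran from -0.49 to -0.19, from -0.09 to -0.03, from 0.04 to 0.14 and from -0.34 to -0.05. Depth limits the 2 Pggt1b-deficient eTreg libraries most, with no count at 12.5% and 16.4% of all sites.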
